A study of Mus musculus with 6 samples.

Results

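The mouse Hox genes were read from 6 arrays of whole embryonic brain as a family whose members mark position along the head-to-tail axis. Members were the array rows whose platform annotation names 1 gene only, with a symbol of Hoxa, Hoxb, Hoxc or Hoxd followed by a digit. The rule found 39 rows for 38 genes, out of 19938 genes with such a row. Of these, 37 were coding Hox genes, and 2 rows belonged to the antisense transcript Hoxd3os1. Also, 1 row that names several Hox genes is not analysed here.

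The RNA came from brains of mouse embryos at embryonic day 16.5, dissected whole, from the olfactory bulb back through forebrain, midbrain and hindbrain to the brain stem. Wild-type embryos numbered 3 (Tdp2+/+), and the other 3 were Tdp2Δ1-3, which lack exons 1 to 3 of Tdp2, the gene of an enzyme that frees DNA ends from trapped topoisomerase II. The labels call the 3 samples of a genotype biological replicates and record no strain, no embryo sex and no caudal limit of the dissection. The deposited values were log2 expression values centred on each row's median over the 6 arrays, so a value of 0 is that row's own middle and levels cannot be compared between genes. For the same reason the values do not tell whether a Hox gene was expressed at all, and brain stem or spinal cord tissue cannot be checked by level.

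Hox genes encode homeodomain transcription factors in 4 chromosomal clusters, and the number in a symbol gives the paralogue group, counted from the 3′ end of the cluster. Along the neural tube the low-numbered genes have rostral limits of expression in the hindbrain, the middle numbers near the join of hindbrain and spinal cord or within the cervical cord, and the high numbers further caudally. Forebrain and midbrain express no or little Hox RNA, so in a whole brain these transcripts come mainly from its caudal end. In bulk tissue, fewer cells of a type and less RNA per cell cannot be told apart.

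The labels were checked first on the deleted gene. Tdp2 read 0.90, 1.10 and 1.34 in the wild-type brains and -1.05, -0.90 and -0.94 in the mutants, a fall of 2.07 on the log2 scale. Mutant brain 3 stood apart in sex-linked genes, with Xist at 6.27 and the Y-linked gene Eif2s3y at -4.32, against at most 1.17 and at least -0.04 in the other 5 brains; mutant brain 2 held the 1.17. Array medians lay between -0.011 and 0.014.

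Paralogue group 5 showed the widest spread of the family, and the spread ran between brains of the same genotype. Hoxa5, which acts in patterning of the caudal hindbrain, neck and lung, read 1.08, 0.80 and -0.80 in wild-type brains 1, 2 and 3 and 1.02, -1.05 and -0.95 in mutant brains 1, 2 and 3. Wild-type brains 1 and 2 and mutant brain 1 were high, the other 3 were low, and the genotypes overlapped. The distance from the highest to the lowest brain was 3.68-fold among the wild types and 4.20-fold among the mutants. Hoxb5, its paralogue in the Hoxb cluster, read 1.03, 0.62 and -0.94 among wild types against 1.20, -0.78 and -0.62 among mutants. The same 3 brains were high, with 3.91-fold between extremes in the wild types and 3.95-fold in the mutants. Hoxc5 read 0.54, 0.31 and -0.31 among wild types against 0.61, -0.38 and -0.35 among mutants, the same division at 1.80-fold and 1.99-fold.

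**Figure D1:**
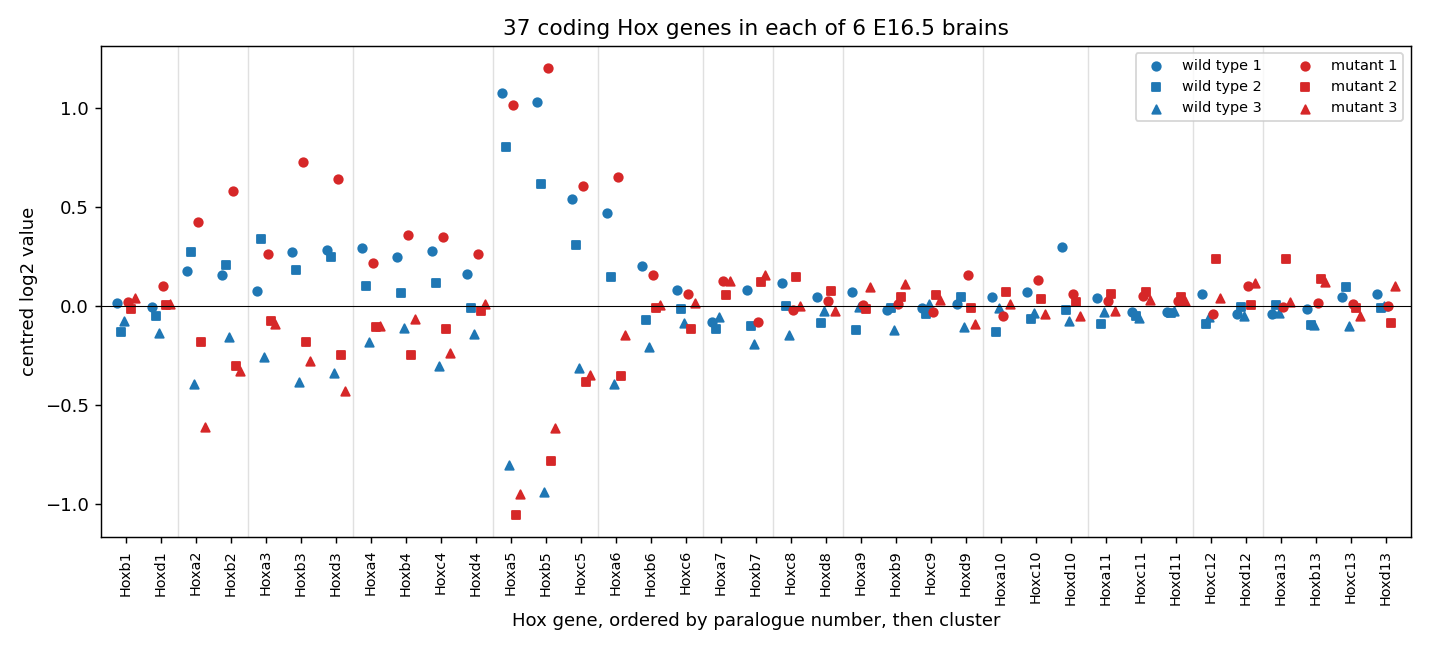
Centred log2 value of the 37 coding Hox genes in each of the 6 brains, ordered by paralogue number and then by cluster; colour marks the genotype and the marker shape the replicate number. Hoxa5 and Hoxb5 span more than 2 log2 units, and from paralogue 7 upward no gene spans more than 0.375.

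The promoter of Hoxa5, the gene of largest SD within genotypes, is shown because CpG-rich promoters in Hox clusters are classical targets of Polycomb repression. The stretch is the 250 bases before the start of transcription in RefSeq (GRCm38.p6, chr6:52204588-52204837, minus strand), with CpG dinucleotides in capitals.
Hoxa5: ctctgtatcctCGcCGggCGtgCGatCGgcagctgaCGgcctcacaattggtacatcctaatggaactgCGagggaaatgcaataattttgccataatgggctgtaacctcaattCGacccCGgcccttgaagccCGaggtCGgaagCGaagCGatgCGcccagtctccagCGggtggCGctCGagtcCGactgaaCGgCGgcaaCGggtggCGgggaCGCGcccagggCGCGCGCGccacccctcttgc
It holds 28 CpG. The 23 Hox promoters in the table, of 21 genes, held a median of 13 CpG in these 250 bases and the 32851 promoters of all genes a median of 6. The most were in Hoxa13 and Hoxd13, at 35 and 31.

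Groups 2 and 3, whose rostral limits lie among the hindbrain rhombomeres, divided the brains in the same way at a smaller size. Hoxa2, which specifies the second branchial arch and rostral rhombomeres, read 0.18, 0.27 and -0.39 among wild types against 0.42, -0.18 and -0.61 among mutants. Hoxb2, a regulator of facial motor neuron identity, read 0.15, 0.21 and -0.15 among wild types against 0.58, -0.30 and -0.33 among mutants. In both genes wild-type brains 1 and 2 and mutant brain 1 were the highest. Hoxb3 read 0.27, 0.18 and -0.38 among wild types against 0.73, -0.18 and -0.28 among mutants. Hoxd3 read 0.28, 0.25 and -0.34 among wild types against 0.64, -0.25 and -0.43 among mutants. Mutant brain 1 was the highest of all 6 brains for Hoxa2, Hoxb2, Hoxb3 and Hoxd3, and wild-type brain 2 was the highest for Hoxa3, at 0.34. Hoxa3 ranged over 0.59 in all.

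Group 4, with limits in the caudal hindbrain, moved less. Hoxa4, Hoxb4, Hoxc4 and Hoxd4 ranged over 0.47, 0.61, 0.65 and 0.41 across the 6 brains. Wild-type brain 1 and mutant brain 1 were the highest pair for each of the 4 genes. Wild-type brain 3 was the lowest brain for Hoxa4, Hoxc4 and Hoxd4, and mutant brain 2 for Hoxb4. The promoters of Hoxd3 and Hoxd4 are shown because retinoic acid is the classical inducer of 3′ Hox genes, and each holds AGGTCA, the core motif of the retinoic acid receptors, searched on both strands. The capitals mark that motif, here as TGACCT on the printed strand, and in Hoxd4 also TTTATNG, a site type bound by Cdx and posterior Hox factors. The stretches are 250 bases before the start in GRCm38.p6, chr2:74711743-74711992 and chr2:74721728-74721977, both on the plus strand.
Hoxd3: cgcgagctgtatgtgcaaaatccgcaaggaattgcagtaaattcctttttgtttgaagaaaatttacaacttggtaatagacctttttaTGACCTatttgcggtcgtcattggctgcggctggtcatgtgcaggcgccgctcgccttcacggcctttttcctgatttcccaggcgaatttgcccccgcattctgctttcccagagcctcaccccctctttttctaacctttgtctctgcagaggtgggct
Hoxd4: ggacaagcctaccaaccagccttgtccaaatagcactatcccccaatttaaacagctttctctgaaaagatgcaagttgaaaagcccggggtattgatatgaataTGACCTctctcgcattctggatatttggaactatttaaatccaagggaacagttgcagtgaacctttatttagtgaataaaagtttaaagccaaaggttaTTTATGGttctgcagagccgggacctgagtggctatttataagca
AGGTCA was found in 6 of the 23 Hox promoters (Hoxb4, Hoxc4, Hoxd3, Hoxd4, Hoxd8 and Hoxd10) and in 14.0% of all promoters. TTTATNG was found in 1 of 23 and in 9.81% of all, the Pbx and Hox motif TGATNNAT in 3 of 23 and 7.68%, and the homeodomain core TAATTA in 2 of 23, both of Hoxd11, and 4.84%. These motifs can overlap, and a match is a run of letters, not a site. The Hoxa5 stretch held none of the 4.

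Group 6 was mixed. Hoxa6, next to Hoxa5 in its cluster, read 0.47, 0.15 and -0.39 among wild types against 0.65, -0.36 and -0.15 among mutants, again with wild-type brain 1, wild-type brain 2 and mutant brain 1 highest. Hoxb6 ranged over 0.41 and Hoxc6 over 0.20. In 12 of the 15 genes of groups 2 to 6 those 3 brains were the 3 highest, a pattern seen in 6.84% of all gene rows. The 3 exceptions were Hoxd4, Hoxb6 and Hoxc6. The pattern and the limits 2 and 6 were chosen after the values were seen, so the count is a description of these brains.

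Groups 7 to 13 varied little, and so did group 1. None of these 20 genes from group 7 upward ranged over 0.4, and their median range was 0.210, beside 0.213 for all gene rows. The widest was Hoxd10, a gene of lumbar motor neuron patterning, at 0.37, with 0.30 in wild-type brain 1 and values from -0.07 to 0.06 in the other brains. The narrowest was Hoxd11, at 0.08. Hoxb1 and Hoxd1, of group 1, ranged over 0.17 and 0.24. Hoxb1 marks rhombomere 4 early in development. The 2 rows of the antisense transcript Hoxd3os1 ranged over 0.22 and 0.12, while the coding gene Hoxd3 ranged over 1.07.

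The medians of groups 1 to 4 and 5 to 8 were highest in wild-type brain 1 and mutant brain 1, and those of groups 9 to 13 were not. For the 11 genes of groups 1 to 4 the median value was 0.18, 0.12 and -0.18 in wild-type brains 1, 2 and 3 and 0.35, -0.12 and -0.10 in mutant brains 1, 2 and 3. For the 10 genes of groups 5 to 8 it was 0.16, -0.01 and -0.20 among wild types against 0.14, -0.06 and -0.01 among mutants. For the 16 genes of groups 9 to 13 it stayed between -0.04 and 0.05. The class of groups 5 to 8 joined genes that differed widely, since the median was 1.03 in wild-type brain 1 for group 5 and -0.0016 for group 7.

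The spread within genotypes was put on one scale by the pooled SD of each row about its genotype means, with n = 3 brains per genotype. Hoxa5 had an SD of 1.09 and Hoxb5 of 1.07, the fifth and sixth largest of 23410 gene rows. The 4 rows above them were the sex-linked genes Xist, Eif2s3y, Uty and Kdm5d, which rest on mutant brain 3. Hoxc5 (0.51), Hoxa6 (0.49), Hoxd3 (0.47), Hoxb3 (0.47) and Hoxa2 (0.45) ranked 16, 17, 18, 19 and 22. Of the 30 single-gene rows of largest SD, 8 were Hox rows. Of the 37 coding Hox genes 13 lay above the 95th percentile of all gene rows (0.1559), all of them in groups 2 to 6, and 11 above the 99th (0.218). Hoxb6 lay just above the 95th percentile at 0.160 and Hoxd4 just below it at 0.1555. With any 1 array left out, 12 to 15 genes lay above that percentile.

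**Figure D2:**
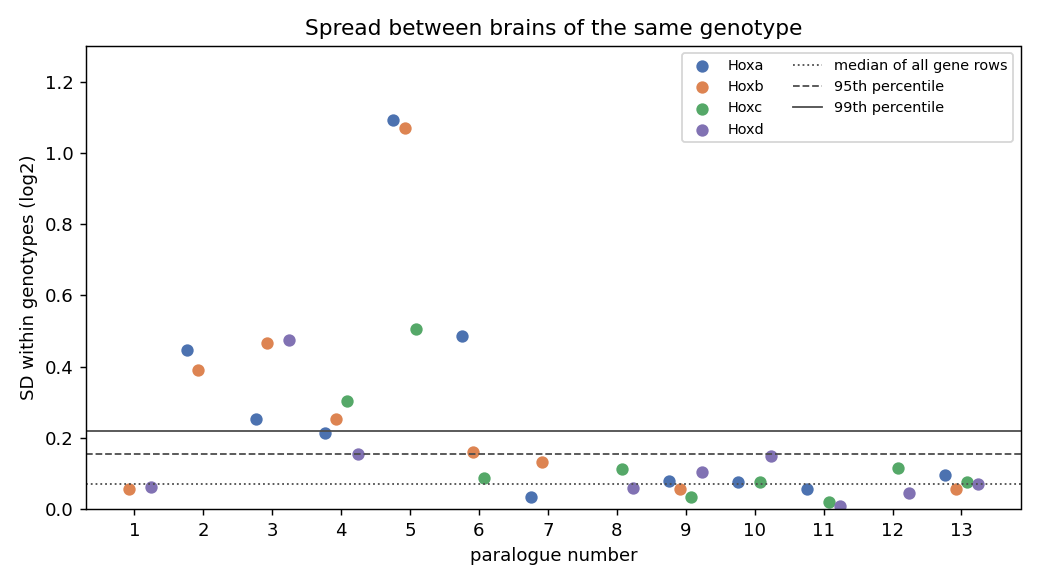
Pooled SD of the centred log2 values within genotypes for each coding Hox gene, by paralogue number and cluster, with the median, the 95th and the 99th percentile of 23410 gene rows as lines. Genes of groups 2 to 5 lie above the 95th percentile, apart from Hoxd4 just below it, with Hoxa5 and Hoxb5 above 1, and all of groups 7 to 13 lie below it.

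The comparison of 3 mutant with 3 wild-type brains asks whether loss of Tdp2 went with a change in any of these genes. By limma with Benjamini-Hochberg adjustment over all gene rows, 1 of the 37 coding genes was called (2.70%), against 6.47% of all gene rows (1515 of 23410). Of all gene rows, 2.34% were called higher and 4.13% lower in the mutants. The Hox gene called was Hoxa7, a thoracic patterning gene, which read -0.08, -0.11 and -0.06 among wild types against 0.13, 0.06 and 0.13 among mutants. Every mutant brain lay above every wild-type brain, but the whole range was 0.24. Hoxa7 rose by 0.19 ± 0.04 (limma's SE, 3 brains a genotype, limma adjusted p = 0.044), which is 1.14-fold. Here and below, the value after ± is limma's moderated SE, with each row's variance drawn toward that of all rows. The call was lost with any 1 array left out, where the adjusted p lay between 0.069 and 0.17. It was also lost with array medians set equal (0.054), with cyclic loess (0.060) and with all array rows tested (0.055).

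The largest estimated differences were in group 5 and had the largest errors. Hoxa5 differed by -0.69 ± 0.63 (limma's moderated SE, n = 3 per genotype, 95% confidence interval -2.15 to 0.78, limma adjusted p = 0.61). Hoxb5 differed by -0.30 ± 0.62 (interval -1.74 to 1.13, limma adjusted p = 0.85) and Hoxc5 by -0.22 ± 0.30 (interval -0.90 to 0.46, limma adjusted p = 0.74). These differences were smaller than the spread between brains of a genotype, and the intervals allow a change of more than 2 log2 units for Hoxa5. Moderation makes the SEs and intervals of these genes narrower than their own spread alone would give. The estimates moved with single arrays. Without mutant brain 1 the Hoxa5 difference was -1.36 and without mutant brain 2 it was -0.33. Hoxb5 went from -0.94 without mutant brain 1 to 0.09 without wild-type brain 1.

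The remaining genes of large difference were small in size. Hoxb13, a gene of the caudal end of the body axis, differed by 0.16 ± 0.05 (limma adjusted p = 0.11), Hoxa2 by -0.14 ± 0.26 (adjusted p = 0.83), Hoxb7 by 0.14 ± 0.09 (adjusted p = 0.43) and Hoxa13 by 0.11 ± 0.07 (adjusted p = 0.41). Hoxd1 (0.10 ± 0.05) and Hoxd10 (-0.06 ± 0.09) were the highest of groups 1 to 4 and the lowest of groups 9 to 13. Without mutant brain 1, Hoxb13 passed at 0.20 (limma adjusted p = 0.049) and Hoxa7 did not (0.069).

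**Figure D3:**
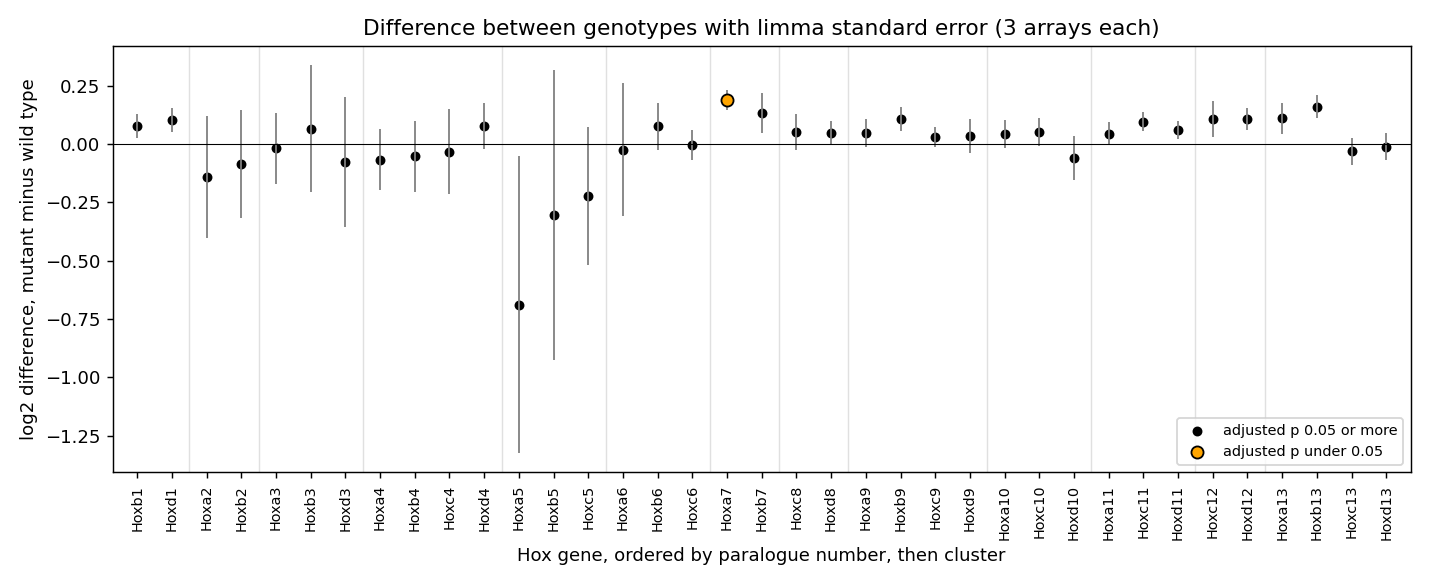
Log2 difference, mutant minus wild type, for each coding Hox gene with limma's standard error from 3 arrays per genotype; the gene with an adjusted p under 0.05 is in orange. The error bars of Hoxa5 and Hoxb5 (0.63 and 0.62) exceed those of groups 7 to 13 (at most 0.09), and Hoxa7 at 0.19 is the called gene.

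Over the 37 coding genes 22 differences were positive (59.5%), beside 56.8% of all gene rows, with a median of 0.045 beside 0.013. In groups 2 to 6, 12 of 15 were negative and in groups 7 to 13, 17 of 20 were positive. The signs of groups 2 to 6 followed the arrays used: without wild-type brain 1, 10 of the 15 were positive, without mutant brain 2, 11, and without mutant brain 1 or wild-type brain 3, 1. In 7 of the 37 coding genes (18.9%) the genotypes did not overlap, against 25.7% of all gene rows. The 5 of them in groups 9 to 13, Hoxb9, Hoxc11, Hoxd11, Hoxd12 and Hoxb13, differed by 0.06 to 0.16, and none passed.

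Listed genes beside and inside the clusters varied about as all gene rows did, with a median within-genotype SD of 0.065 beside 0.070. Of 34 listed flanking genes, cluster miRNA genes and cluster noncoding RNAs, 27 were measured, and none lay above the 95th percentile of the within-genotype SD. In 7 of the 27, Atp5g3, Copz2, Hibadh, Hoxaas2, Nfe2l1, Skap2 and Smug1, wild-type brains 1 and 2 and mutant brain 1 were the 3 highest (25.9%, beside 6.84% of all gene rows). Of the 27 measured, 1 was called higher and 1 lower in the mutants, beside 2.34% and 4.13% of all gene rows. Cbx1, a heterochromatin protein gene beyond the Hoxb cluster, rose by 0.33 ± 0.06 (limma adjusted p = 0.020). Jazf1, beyond the Hoxa cluster, fell by 0.35 ± 0.07 (limma adjusted p = 0.024). Neither gene nor any other of the list was called without wild-type brain 2, mutant brain 2 or mutant brain 3, and 1 was called without wild-type brain 1. The other 25 did not pass, among them Evx1 at 0.09 (adjusted p = 0.34), the homeobox gene at the 5′ end of the Hoxa cluster.

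The miRNA genes of the clusters are shown for their shared seeds, since miR-10 and miR-196 lie between Hox genes and are known to target Hox transcripts. Mature sequences are from RefSeq (GRCm38.p6), with the seed, bases 2 to 8, in capitals. They lie at chr11:96317186-96317208 (miR-10a), chr2:74726074-74726096 (miR-10b) and chr11:96265187-96265208 (miR-196a, from Mir196a-1) on the plus strand, and at chr6:52230129-52230150 on the minus strand (miR-196b).
miR-10a-5p: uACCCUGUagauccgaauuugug
miR-10b-5p: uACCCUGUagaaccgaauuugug
miR-196a-5p: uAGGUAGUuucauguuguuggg
miR-196b-5p: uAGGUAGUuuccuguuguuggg
The miR-10 pair shares a seed and differs by U12A, and the miR-196 pair shares another and differs by A12C, counted from the 5′ end of the first named. The Mir10a row, from the Hoxb cluster, ranged over 0.06 across the 6 brains, and the Mir10b row, from the Hoxd cluster, over 0.06, while Hoxb5 ranged over 2.14. Mir196b ranged over 0.22, and Mir196a-1 and Mir196a-2 over 0.07 and 0.22. These rows do not separate mature from precursor RNA, and arrays of this type are not made for mature miRNAs.

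The regulators of Hox genes were described from lists. Of 21 listed retinoic acid, Cdx and rhombomere genes, 18 were measured and 1 passed, beside 6.47% of all gene rows: Rarb, a retinoic acid receptor, fell by 0.32 ± 0.06 (limma adjusted p = 0.020), with 0.31, 0.10 and 0.22 among wild types against -0.10, -0.10 and -0.12 among mutants. No gene of the list was called without wild-type brain 3, mutant brain 2 or mutant brain 3, and 2 were without mutant brain 1. In 4 of the 18 (22.2%), Crabp1, Dhrs3, Rara and Stra6, wild-type brains 1 and 2 and mutant brain 1 were the 3 highest, as for Hoxa5. That order was seen in 6.84% of all gene rows. Crabp1, a retinoic acid binding protein, read 0.43, 0.23 and -0.24 among wild types against 0.38, -0.23 and -0.29 among mutants. It did not pass (-0.19, limma adjusted p = 0.69). Cdx1, Cdx2 and Cdx4, the caudal homeobox genes, ranged over 0.19, 0.23 and 0.18. Of 21 Polycomb and trithorax genes, 20 were measured and 3 rose, beside 2.34% of all gene rows. These were the Polycomb genes Ezh2, Eed and Cbx2, by 0.29, 0.25 and 0.27 (limma adjusted p = 0.019, 0.042 and 0.018). The list median was 0.04. No Polycomb or trithorax gene was called without wild-type brain 2 or mutant brain 2, and 1 was without wild-type brain 1 or mutant brain 3. Cycling-cell genes rose in the same brains (9 of 9 measured, 2 without mutant brain 2, median 0.59), and their part in these rises was not tested. Of 9 Hox cofactors of the Pbx, Meis and Pknox families, 8 were measured and none passed (limma, 1 at an unadjusted p under 0.05, beside 21.8% of all gene rows). The 3 of smallest p were Pbx2, Pbx4 and Pknox1, at 0.17, 0.12 and 0.08 (limma adjusted p = 0.10, 0.23 and 0.35). Meis1 had the widest spread of these, from -0.57 in mutant brain 3 to 0.30 in mutant brain 1.

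Some neuron genes of hindbrain and spinal cord divided the brains as Hoxa5 did. Slc6a5, the glycine transporter of inhibitory neurons in hindbrain and spinal cord, read 0.88, 0.71 and -0.38 among wild types against 0.38, -0.48 and -0.81 among mutants. Slc18a3, the vesicular acetylcholine transporter, read 0.21, 0.31 and -0.24 among wild types against 0.21, -0.21 and -0.41 among mutants. Pax2, a factor of inhibitory neurons in the hindbrain, cerebellum and spinal cord, read 0.26, 0.29 and -0.27 among wild types against 0.47, -0.26 and -0.67 among mutants. For each of these genes wild-type brains 1 and 2 and mutant brain 1 were above the other 3, and none passed between genotypes. That order held in 5 of 19 hindbrain (26.3%) and 2 of 15 spinal cord neuron genes (13.3%), beside 6.84% of all gene rows. The 19 measured hindbrain neuron genes had medians of 0.05, -0.02 and -0.10 among wild types against 0.07, 0.01 and -0.10 among mutants. Of them 6 lay above the 95th percentile of the within-genotype SD, and none passed (limma, 5 at an unadjusted p under 0.05, beside 21.8% of all gene rows). Blocking on replicate number gave 3 calls, all lower. The smallest p were those of Isl1, a motor neuron factor, at 0.18, of Slc6a4, the serotonin transporter, at -0.52, and of Olig3 at 0.21 (limma adjusted p = 0.069, 0.085 and 0.14). Of 15 measured spinal cord neuron genes 5 lay above that percentile, with medians of -0.0037, -0.01 and -0.08 among wild types against 0.09, 0.13 and -0.03 among mutants. Sim1 alone of the 15 passed, beside 6.47% of all gene rows, at 0.39 ± 0.07 (limma adjusted p = 0.017). It is also a hypothalamic gene, and no spinal cord gene was called without wild-type brain 2 or mutant brain 2. Without mutant brain 1, 1 hindbrain neuron gene was called.

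Of 12 measured genes of peripheral ganglia and nerve, 5 divided the brains as Hoxa5 did (Prph, P2rx3, Scn10a, Avil and Isl2) and 7 did not. That division was seen in 6.84% of all gene rows. Prph, an intermediate filament of peripheral and motor neurons, read 0.74, 0.52 and -0.71 among wild types against 0.46, -0.46 and -0.86 among mutants. P2rx3, an ATP receptor of sensory neurons, read 0.58, 0.33 and -0.43 among wild types against 0.38, -0.33 and -0.56 among mutants. Scn10a, a sodium channel gene of sensory neurons, read 0.25, 0.11 and -0.38 among wild types against 0.10, -0.10 and -0.17 among mutants. These 3 genes were high in wild-type brains 1 and 2 and mutant brain 1. Of the 12 genes 5 lay above the 95th percentile, and the list's medians were 0.18, 0.05 and -0.10 among wild types against 0.07, -0.10 and -0.12 among mutants. None passed between genotypes (limma, 2 at an unadjusted p under 0.05, beside 21.8% of all gene rows), while 2 were called without mutant brain 1 and 2, both lower, when replicate number was blocked. The smallest p were those of the glial myelin gene Pmp22 at -0.37, the sodium channel gene Scn9a at -0.26 and the glial factor Sox10 at -0.11 (limma adjusted p = 0.077, 0.082 and 0.32). Trpv1 and Scn11a, defining genes of sensory ganglia, ranged over 0.25 and 0.14, while Scn10a and Avil ranged over 0.64 and 0.56. Whether attached ganglia took part in the Hox spread was not tested.

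**Figure D4:**
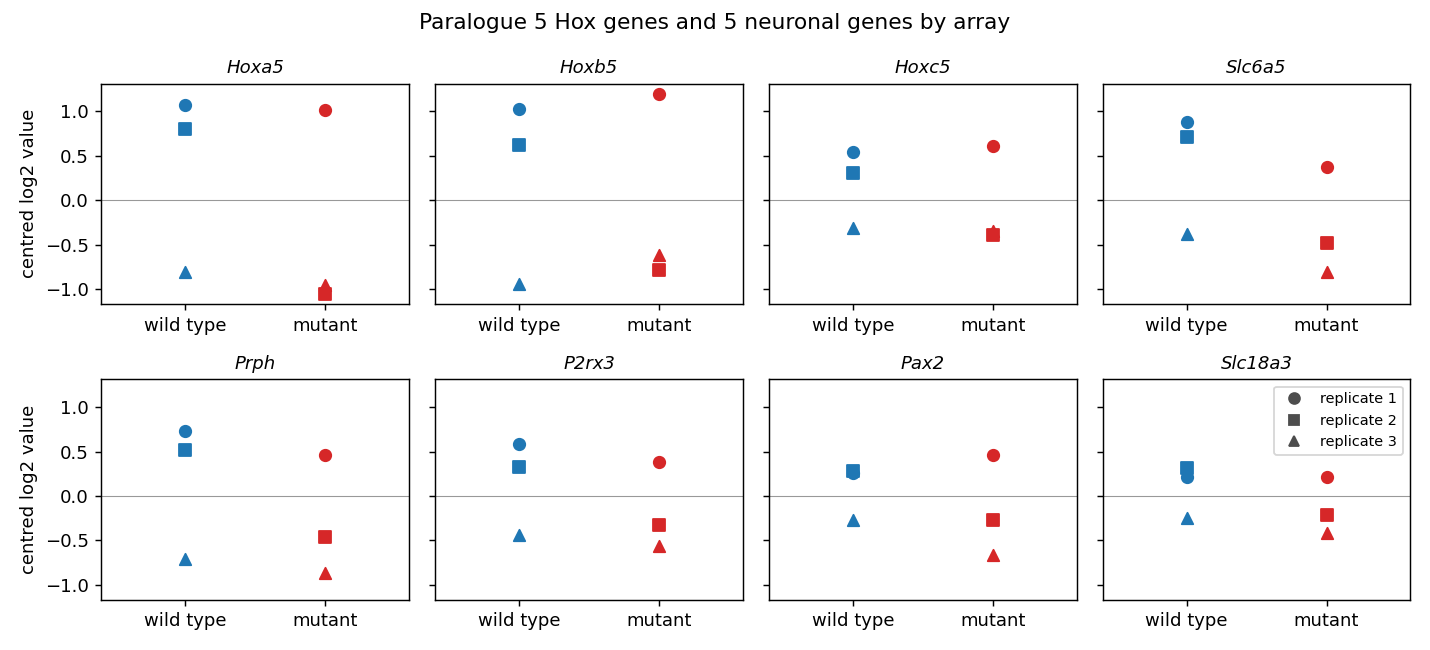
Centred log2 values of Hoxa5, Hoxb5 and Hoxc5 and of Slc6a5, Prph, P2rx3, Pax2 and Slc18a3 in each brain, by genotype, with the replicate number as marker shape. In all 8 panels wild-type brains 1 and 2 and mutant brain 1 lie above 0 and the other 3 brains below it. The genes other than Hox were chosen after their values were seen, and centring puts the 3 highest brains of a row above 0. That order held in 5 of 19 hindbrain, 2 of 15 spinal cord and 5 of 12 ganglion genes, and in 6.84% of all gene rows.

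Markers of other tissue that a wider dissection could hold were read beside these. Of 20 cartilage, muscle and axial mesoderm genes none passed (limma, 2 at an unadjusted p under 0.05, beside 21.8% of all gene rows), and 1, Col1a1, lay above the 95th percentile. The smallest p were those of Actc1, Col2a1 and Acta1, at 0.14, 0.15 and 0.13 (limma adjusted p = 0.17, 0.22 and 0.30). Their medians ran from -0.06 to 0.04 in the wild types and from -0.0058 to 0.01 in the mutants. Of 12 meningeal genes 3 fell, beside 4.13% of all gene rows. They were Ogn, Slc6a13 and Aldh1a1, by 0.54, 0.43 and 0.40 (limma adjusted p = 0.0090, 0.043 and 0.028). The meningeal medians were 0.15, 0.03 and -0.02 among wild types against 0.01, -0.10 and -0.14 among mutants. The count of meningeal calls was 0 without mutant brain 2, 2 without wild-type brain 2 and 1 without wild-type brain 1, wild-type brain 3 or mutant brain 3. Of 9 measured choroid plexus genes 6 lay above the 95th percentile and none passed (limma, 1 at an unadjusted p under 0.05, beside 21.8% of all gene rows). The smallest p were those of Otx2, Aqp1 and Ttr, at 0.64, -0.18 and -0.17 (limma adjusted p = 0.074, 0.37 and 0.40), and the list medians ran from -0.05 to 0.05 in the wild types and from -0.14 to 0.16 in the mutants. Without wild-type brain 1 or mutant brain 1, 1 choroid plexus gene was called, and 1 was when replicate number was blocked. Of 8 red-cell genes 2 rose, Hbb-y and Hba-x, beside 2.34% of all gene rows. In 5 of the 12 meningeal genes (Bgn, Col3a1, Dcn, Foxc1 and Foxc2), 4 of the 20 cartilage, muscle and mesoderm genes (Col1a1, Matn1, Myog and Twist1) and 1 of the 9 choroid plexus genes (Kl), wild-type brains 1 and 2 and mutant brain 1 were the 3 highest. That order was seen in 6.84% of all gene rows. Levels at 0 cannot be read from centred values, and the part of these tissues in the Hox spread was not tested.

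At the rostral end, 4 of 13 measured forebrain factors rose, beside 2.34% of all gene rows. They were Otx1, Nkx2-1, Lhx2 and Fezf2, by 0.28, 0.25, 0.35 and 0.37 (limma adjusted p = 0.026, 0.029, 0.042 and 0.049). The medians of the 13 factors were -0.07, -0.10 and -0.05 among wild types against 0.03, 0.08 and 0.08 among mutants, so that the groups did not overlap. Within each genotype these medians were lower in the high-Hox brains, wild-type brains 1 and 2 and mutant brain 1, than in the others. The wild-type gap was small, at -0.068 in wild-type brain 1 against -0.055 in wild-type brain 3. Emx1, Nkx2-1, Dmrta2 and Rax were higher in wild-type brain 1 than in wild-type brain 3, and the other factors lower. A link with the Hox spread was not tested. None of these factors was called without wild-type brain 1, wild-type brain 2, mutant brain 2 or mutant brain 3. Of 15 genes of the isthmus and cerebellum, which form rostral to most Hox expression, 1 rose, beside 2.34% of all gene rows. It was Barhl2, by 0.44 (limma adjusted p = 0.031). No gene of this list was called without wild-type brain 2, mutant brain 2 or mutant brain 3. The other 14 did not pass, and 6 of the 15 lay above the 95th percentile of the within-genotype SD, among them En2, at -0.59 in wild-type brain 1 and 0.42 in mutant brain 1. Pax8 was another of the 6 and divided the brains as Hoxa5 did, at 0.29, 0.15 and -0.23 among wild types against 0.35, -0.15 and -0.41 among mutants, as did Zic2 of the same list. The 12 synapse genes, of which 10 fell between genotypes (6, 5 and 2 without wild-type brain 1, wild-type brain 2 and mutant brain 2), had medians of 0.28, 0.18 and 0.17 among wild types against -0.20, -0.32 and -0.36 among mutants. When the mean of Hoxa5, Hoxb5 and Hoxc5 in each brain was added to the fit as a covariate, 1618 gene rows were called in place of 1515. That choice was made after the values were seen. The counts of cycling-cell (9), synapse (10) and forebrain (4) genes called were equal to those without the covariate. The fit had 6 brains, and the part of the Hox spread in these calls was not tested. With the same covariate no Hox gene was called, Hoxa7 included (lowest limma adjusted p of the coding Hox genes 0.058), and 1 ganglion gene was called lower. As the covariate was made from Hox genes, the Hox differences are then no longer independent of it: 33 of 37 were positive, and 14 of 15 in groups 2 to 6.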

How the data were processed

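RNA of 6 brains was hybridised to Affymetrix Mouse Gene 1.0 ST arrays. Per the series text, the authors normalized the deposited log2 values by Robust Multi-Array Average; Affymetrix Expression Console is the tool listed in the submitters' processing notes. The log base is not stated, and log2 is what RMA gives. Each row's 6 values had a median within 5e-07 of 0, and no source used here describes that centring. A genome build is not given in the sources used here.

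Of 28856 rows, 23410 name a gene and were tested, and 21789 name 1 gene. Current symbols came from a RefSeq table (GRCm38.p6), matched on gene identifier for 21698 rows. Where a gene had several rows, the row with most accessions was counted. The test was limma 3.58.1 (lmFit and eBayes, two-sided, R 4.3.3), Benjamini-Hochberg adjusted over 23410 rows, with calls at an adjusted p under 0.05. The p-values rest on 3 brains a genotype, whose number limits the precision. The fit was tested on simulated data for this comparison, 5 rounds of 23410 rows with 200 changed. It recovered 100% of the rows made to differ 1.5-fold and 100% of those at 2-fold, with 3.37% of calls false. The simulated noise was independent between rows and arrays, and each row's SD was drawn toward the mean of all rows. The recovery therefore does not apply to rows of wide spread, such as Hoxa5 at an SD of 1.09. Figures were drawn with matplotlib 3.10.9.

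Genes named in full were the 8 Hox genes of largest difference, any called member and the extremes of each class. In other lists they were called members or, with none called, the 3 of smallest p. Genes named for their spread or pattern over the brains, or as defining markers, were chosen after their values were seen. Members and lists were chosen with earlier results of these data known. Alternative settings were a block for replicate number, leaving out single arrays, equal array medians, cyclic loess, all rows, array weights, a robust variance prior, a 1.5-fold limit and, for the family median, all single-gene rows. The group 5 covariate and the spread counts under alternatives were added after the data were seen.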

Additional observations from a re-analysis of the deposited data

How the results depend on the processing

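With 3 brains a genotype and levels centred away, a Hox difference of the size of the spread between brains cannot be resolved, and no filter on low signal could be applied. The count of Hox rows called was 1; it was 0 with array medians equal, cyclic loess, all rows or a 1.5-fold limit, 5 with array weights (Hoxa7, Hoxb7, Hoxc11, Hoxc12 and Hoxb13, all higher) and 0 to 1 with 1 array left out. Over all gene rows 1515 were called; it was 5425 with array weights, 150 at 1.5-fold and 145 to 2501 with 1 array left out, the fewest without mutant brain 2 and the most without mutant brain 1. With wild-type brain 1, wild-type brain 2 or mutant brain 3 left out it was 725, 335 and 596. Of the genes of all lists 36 were called, 72 with array weights and 6 to 41 with 1 array left out. Without wild-type brain 2, mutant brain 2 or mutant brain 3 the list count was 18, 6 and 21. The median difference of groups 9 to 13 was 0.050, 0.082 with array weights and 0.041 to 0.086 with 1 array left out. That of groups 1 to 4 was -0.032, and -0.21 to 0.085 with 1 array left out. For groups 5 to 8 it was 0.020, and -0.031 to 0.10 with 1 array left out. The medians of these other classes moved by less than the spread between brains, but their sign changed. With 1 array left out, Hoxa2 ran from -0.41 to 0.10, Hoxb5 from -0.94 to 0.093 and Hoxd10 from -0.13 to 0.056, and Hoxd10 was 0.0080 with array weights. The cause was not tested. With the replicate number as a block 2400 gene rows and 1 Hox row, Hoxa7, were called (limma adjusted p = 0.043). In the gene lists it called 45 genes in place of 36. Among them were 3 hindbrain neuron and 2 ganglion genes lower and 1 choroid plexus gene higher, lists with none called in the main fit. The series text speaks of independent pairs without tying them to numbers, so the numbers were not taken as pairs in the main fit. The deviations of same-numbered brains correlated at 0.21, 0.05 and 0.20 for numbers 1, 2 and 3. Those of differently numbered brains correlated at -0.22 to 0.06. These values do not settle whether the numbers mark pairs.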

Other observations

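Genes outside the gene lists used here also ranked high in spread between brains of a genotype, and are given as values chosen after they were seen. Sncg, a synuclein of sensory and motor neurons, read 0.65, 0.29 and -0.60 among wild types against 0.57, -0.29 and -0.67 among mutants, and Mab21l2 read 0.23, 0.24 and -0.34 and 0.59, -0.23 and -0.72. In both genes wild-type brains 1 and 2 and mutant brain 1 were above the other 3, as for Hoxa5. Lamp5, a membrane protein of some neurons, read 0.42, 0.35 and -0.52 among wild types against 0.57, -0.35 and -1.30 among mutants, and Scn7a, a sodium channel gene, 0.73, 0.55 and -0.24 and 0.24, -0.40 and -0.42.

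Other wide genes divided the brains differently. Gh, the growth hormone gene of the pituitary, read 1.57 in wild-type brain 1 and between -0.29 and 0.06 in the other 5 brains. Penk, the proenkephalin gene, read -1.03 and -1.64 in mutant brains 2 and 3 and between -0.01 and 0.12 elsewhere. Tfap2d, a transcription factor gene of the midbrain, read -1.02 in wild-type brain 1 and between -0.08 and 0.23 in the others.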
